A study of Mus musculus with 24 samples.

Results

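The 46 genes described here encode the machinery with which a nerve terminal stores transmitter in vesicles and releases it. They were taken by symbol from a list of presynaptic genes (46 of the 45792 genes in the count table), and all 46 had counts high enough to be tested, as did 16777 genes in all. The series sequenced polyadenylated RNA of primary cortical neurons, prepared from E16.5 mouse embryos and kept for 12 days in culture. The neurons were H2BE-KO/mCherry-KI (KO), which lack the histone variant H2BE and carry an mCherry reporter, or wild type (WT). Neurons of either genotype stayed untreated (control) or received brain-derived neurotrophic factor (BDNF), for 30 min or for 24 h. That makes 6 groups, and 4 libraries were sequenced from every group. The comparisons ask which presynaptic messages differ between KO and WT neurons, which change with BDNF, and whether the change depends on genotype.

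At a presynaptic terminal, synapsins hold vesicles in a reserve, scaffolds such as bassoon, piccolo and RIM organise the active zone, and Munc13 proteins prime docked vesicles for fusion. Fusion is driven by the SNARE proteins synaptobrevin, SNAP25 and syntaxin, is held and helped by complexins, and is triggered when synaptotagmins bind calcium. BDNF acts through the receptor kinase TrkB and is known to strengthen transmitter release and to change gene expression in cortical neurons over hours.

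The libraries held 19780486 to 62135270 counts, and the 46 genes took 1.32% to 1.80% of them in KO and 1.31% to 1.54% in WT libraries. Summed levels of 8 neuron markers were 5200.1 to 6499.6 CPM (counts scaled to a common library total) in KO and 6143 to 6788 CPM in WT libraries, while microglia markers stayed at or below 6.78 CPM. Summed inhibitory neuron markers were higher in KO (2229 to 3072.5 CPM in KO control, 1042 to 2123 CPM in WT control libraries), and excitatory cortical markers were lower (417 to 496 CPM in KO control, 660.4 to 898 CPM in WT control libraries). The astrocyte sum was also lower (181 to 316 CPM in KO control, 426 to 618 CPM in WT control libraries). Most of that sum was Slc1a2, with a median of 333.6 CPM over all libraries. Slc1a3 had a median of 19.28 CPM and the other astrocyte markers less, so the sum follows mainly 1 gene. Hist2h2be, the H2BE gene, was counted at 50.0 to 63.1 CPM in 11 KO libraries and at 3.15 to 5.83 CPM in WT libraries. Counts over the whole gene do not check the deletion, since the part replaced by mCherry is not given in the labels. The library labelled KO BDNF 24 h replicate 4 had 21.2 CPM of Hist2h2be, and its inhibitory (1630.1 CPM), excitatory (521 CPM) and astrocyte (469.96 CPM) marker sums lay toward WT. Mitochondrial genes took 18.5% and 21.7% of the counts in the control and 30 min libraries of the same KO culture (culture 4), and KO BDNF 30 min replicate 3 had the fewest counts. Calls that were lost without culture 4 and that library are named with the results.

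The genes spanned a wide range of levels, compared here as CPM per kilobase of exon. In WT control libraries Vamp2 (synaptobrevin 2, the main vesicle SNARE) led at 289 ± 16.9 CPM per kb (SD, n = 4). It was followed by Cplx1 (complexin 1) at 239.7 ± 18.9 and Rab3a (a vesicle GTPase) at 180.1 ± 10.1 CPM per kb. In KO control libraries Cplx1 came before Vamp2, with Cplx1 at 452 ± 27.7 and Vamp2 at 376 ± 20.5 CPM per kb. Syt2, Cplx3, Syt12 and Unc13c closed the WT order, at 0.351 ± 0.0966, 0.450 ± 0.327, 0.517 ± 0.150 and 0.881 ± 0.183 CPM per kb. Syt2 is best known from fast synapses of hindbrain and spinal cord, and Unc13c from the cerebellum.

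Promoter windows of 300 bases around the annotated start site (RefSeq, GRCm38.p6) matched 32 of the 46 genes. The letters of 7 motifs were searched on both strands. The left part of the RE1 element (TTCAGCACC), which binds the neuronal gene repressor REST, was in 0.372% of all 32817 promoter windows and in those of Syn1 and Unc13a. The cyclic AMP response element (TGACGTCA), a site of the BDNF-responsive factor CREB, was in 1.79% of all windows and among the matched genes in that of Syn1. The NRF1 core (GCGCATGCG) was in 1.75% of all windows and in those of Bsn, Stxbp5 and Syn1. The Sp1 box (GGGCGG) was in 35.6% of all windows and in 26 of the 32. The short form of the cyclic AMP element (TGACG) was in 20.8% of all windows and in 7 of the 32, AP-1 (TGANTCA) in 7.81% and in 3, and the EGR box (GCGNGGGCG) in 5.56% and in 7. The short form lies within the full one, and a gene with several windows was counted once. Shown are Syn1 and Unc13a, which share the RE1 part, and Unc13b and Sv2b, which had the lowest adjusted p of the 46 genes after 24 h of BDNF in WT. Each is printed 5′ to 3′ on the gene's strand. Capitals mark the NRF1 core (read on the opposite strand), the RE1 part and the cyclic AMP element in Syn1 (chrX:20920869-20921168, minus strand), the RE1 part, read on the opposite strand, in Unc13a (chr8:71671708-71672007, minus strand), and the Sp1 box, on either strand, in Unc13b (chr4:43058703-43059002, plus strand) and Sv2b (chr7:75309213-75309512, minus strand). In Syn1 the cyclic AMP element began at position -159 and the RE1 part at position -232 from the start site, and in Unc13a the RE1 part began at position 22. Other matches are left in lower case. These are matches of letters and not tested sites.
Syn1: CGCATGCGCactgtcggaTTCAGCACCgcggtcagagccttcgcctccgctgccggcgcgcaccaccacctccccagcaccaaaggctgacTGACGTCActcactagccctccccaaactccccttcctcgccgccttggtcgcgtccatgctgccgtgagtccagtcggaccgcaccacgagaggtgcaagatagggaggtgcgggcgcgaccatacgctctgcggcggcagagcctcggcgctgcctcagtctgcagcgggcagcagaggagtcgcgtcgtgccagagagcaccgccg
Unc13a: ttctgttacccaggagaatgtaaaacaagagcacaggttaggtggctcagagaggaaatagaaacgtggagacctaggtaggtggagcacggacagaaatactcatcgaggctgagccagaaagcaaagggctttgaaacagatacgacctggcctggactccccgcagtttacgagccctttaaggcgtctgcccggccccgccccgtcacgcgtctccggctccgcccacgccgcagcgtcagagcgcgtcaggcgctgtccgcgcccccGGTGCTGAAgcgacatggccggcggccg
Unc13b: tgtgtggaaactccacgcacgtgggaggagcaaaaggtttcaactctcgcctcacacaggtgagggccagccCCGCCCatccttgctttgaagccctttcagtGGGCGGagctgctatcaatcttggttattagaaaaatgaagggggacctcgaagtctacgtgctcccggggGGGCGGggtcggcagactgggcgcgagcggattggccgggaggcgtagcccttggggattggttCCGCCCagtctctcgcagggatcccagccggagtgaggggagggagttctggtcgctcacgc
Sv2b: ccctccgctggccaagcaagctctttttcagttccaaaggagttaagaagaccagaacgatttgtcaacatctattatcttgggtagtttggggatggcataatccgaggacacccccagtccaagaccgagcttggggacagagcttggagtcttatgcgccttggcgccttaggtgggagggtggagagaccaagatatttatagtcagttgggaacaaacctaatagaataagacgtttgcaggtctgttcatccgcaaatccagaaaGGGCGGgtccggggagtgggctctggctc

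After 30 min of BDNF none of the 46 genes passed the test in either genotype. In KO, 0.125% of all genes tested passed at 30 min, and in WT 0.37%. In edgeR, fitted without pairing libraries by culture, no member reached an unadjusted p under 0.05 in KO or in WT. DESeq2, also without pairing, called 0 in both. Fitted log2 fold changes ran from -0.62 to 0.44 in KO and from -0.17 to 0.37 in WT, with medians of -0.03 in KO and -0.01 in WT, against medians of -0.01 in KO and 0.00 in WT over all genes tested. Syt4, which rose at 24 h, was 374, 341, 496 and 388 CPM in WT BDNF 30 min against 302, 310.0, 406 and 314 CPM in WT control libraries, groups that overlapped (0.26 ± 0.26, adjusted p = 1.0). Paired by culture, its log2 change at 30 min was 0.31, 0.14, 0.29 and 0.31 in WT, higher in each culture. In KO it was -0.01, 0.15, -0.46 and 1.29. In KO BDNF 30 min libraries Syt4 was 379, 322, 378 and 1084 CPM, and replicate 4 alone was high. The same library had 115.5 CPM of Slc17a6, against 28.2 to 38.2 CPM in the other 3, and 6.60 CPM of Syt12, against 3.19 to 4.31 CPM. These 3 genes also rose at 24 h in both genotypes. The difference of the 30 min response between KO and WT passed in 0 of the 46 genes (0 at an unadjusted p under 0.05, 0 in DESeq2), against 0.0477% of all genes.

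After 24 h of BDNF the presynaptic genes moved in both directions. In KO, 4 rose and 1 fell (10.9% of the 46, against 5.61% of all genes tested), and in WT, 4 rose and 10 fell (30.4% of the 46, against 18.7% of all genes). The median log2 fold change of the 46 was -0.12 in KO and -0.12 in WT, against -0.03 in KO and -0.01 in WT over all genes tested. Syt4, Syt12 and Slc17a6 passed as higher and Syt11 as lower in both genotypes. With the culture that each library came from as a replicate block, 18 genes passed in KO (6 higher, 12 lower; 39.1% of the 46, against 16.9% of all genes) and 26 in WT (6 higher, 20 lower; 56.5% of the 46, against 31.6% of all genes). In the fit without the block, among genes with a mean of at least 10 CPM, 9.76% of the members passed in KO, against 7.63% of all such genes, and 29.3% passed in WT, against 25.1%. Without the block the members' shares lay near those of all genes above this floor, which does not match the members' own levels. Shares above the floor were not computed with the block. The members were also chosen with earlier results of these data known.

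Among the synaptotagmins, Syt4, which sits on BDNF-containing vesicles in rodent neurons, rose by the largest number of CPM. In KO it was 809.7, 725, 827 and 734 CPM in BDNF 24 h libraries, against 381, 291, 521 and 442 CPM in control libraries. In WT it was 663, 636, 891 and 753 CPM at 24 h, against 302, 310.0, 406 and 314 CPM in control. All 24 h libraries of each genotype lay above all control libraries, a log2 fold change of 0.92 ± 0.27 in KO (adjusted p = 0.043) and 1.14 ± 0.27 in WT (adjusted p = 0.00381). Syt12, a calcium-independent synaptotagmin tied to presynaptic plasticity at mossy fibre terminals, is scarce in these cultures. Its level was 7.96, 7.41, 8.02 and 5.88 CPM at 24 h against 4.06, 3.70, 4.65 and 4.81 CPM in control in KO, and 8.10, 7.55, 5.11 and 7.62 CPM at 24 h against 3.25, 2.37, 2.002 and 3.83 CPM in control in WT. Again no library overlapped, with 0.77 ± 0.22 in KO (adjusted p = 0.0424) and 1.31 ± 0.22 in WT (adjusted p = 0.000242). Slc17a6 (VGLUT2, chr7:51622006-51671119), the vesicular glutamate transporter of subcortical and immature cortical neurons, rose in each of the 8 cultures. Its level was 95.3, 92.4, 67.1 and 122 CPM at 24 h against 44.3, 34.4, 38.9 and 39.9 CPM in control in KO. In WT it was 114, 134, 55.4 and 94.2 CPM at 24 h against 51.1, 55.9, 25.8 and 42.6 CPM in control, where culture 3 was low at both times and made the groups overlap. The log2 fold change was 1.26 ± 0.36 in KO (adjusted p = 0.0396) and 1.18 ± 0.36 in WT (adjusted p = 0.022). By culture it was 1.10, 1.43, 0.78 and 1.61 in KO and 1.16, 1.26, 1.10 and 1.14 in WT. Syt4 changed by culture by 1.09, 1.32, 0.67 and 0.73 in KO and 1.14, 1.04, 1.13 and 1.26 in WT. Syt12 changed by 0.96, 0.99, 0.78 and 0.29 in KO and 1.31, 1.65, 1.33 and 0.98 in WT. Without pairing by culture, the KO calls of Syt4, Syt12 and Slc17a6 were close to the threshold. Each was lost in 7 of the 8 unpaired fits that left out 1 library. The values were 0.80 to 1.06, adjusted p up to 0.119 for Syt4, 0.71 to 0.87, adjusted p up to 0.11 for Syt12 and 1.11 to 1.39, adjusted p up to 0.0963 for Slc17a6. The WT call of Slc17a6 was lost without control replicate 3 or 4 or 24 h replicate 1 or 2 (0.996 to 1.376, adjusted p up to 0.0799).

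**Figure D1:**
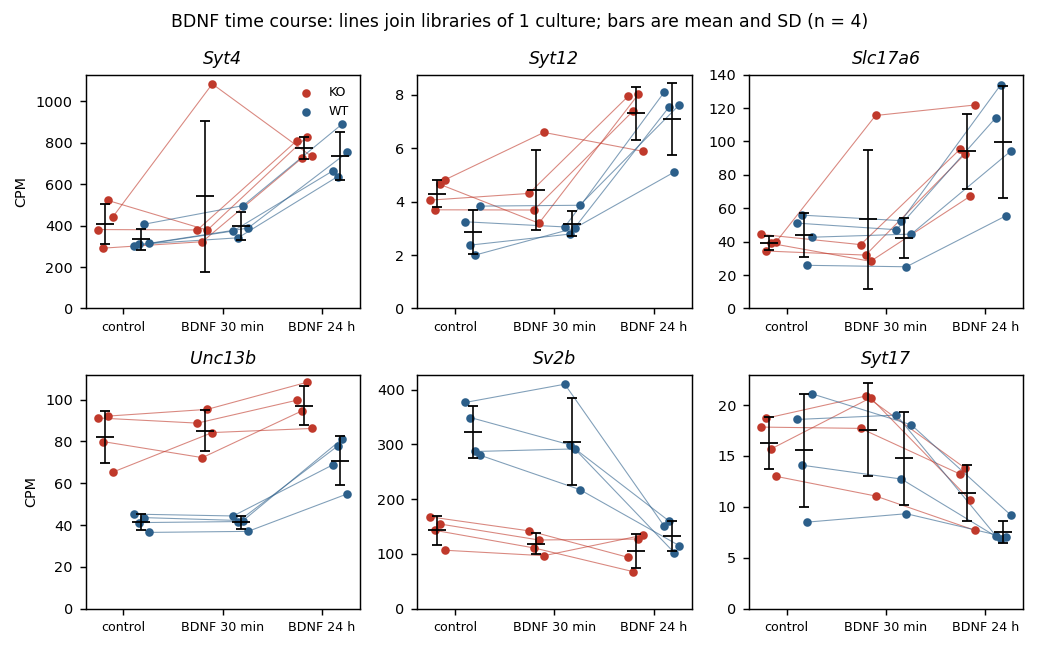
Level of 6 genes in CPM (linear axis from 0) in KO (red, left) and WT (blue, right) libraries at control, BDNF 30 min and BDNF 24 h. Points are libraries, thin lines join libraries of 1 culture, and black bars are mean and SD (n = 4). Syt4, Syt12 and Slc17a6 are high at 24 h in both genotypes, and KO BDNF 30 min replicate 4 stands high for these 3. Unc13b rises and Sv2b and Syt17 fall at 24 h in WT. Their mean changes in KO have the same sign and are smaller. For Sv2b, KO culture 4 rose and the other KO cultures fell.

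Unc13b (Munc13-2, chr4:43058953-43264871), a priming protein, rose with BDNF in WT and was already higher in KO control cultures. In KO it was 99.7, 94.6, 108 and 86.2 CPM at 24 h against 91.2, 79.9, 92.1 and 65.4 CPM in control, and in WT 68.8, 77.8, 81.4 and 55.0 CPM at 24 h against 45.3, 41.2, 43.6 and 36.5 CPM in control. The WT groups did not overlap and the KO groups did, with log2 fold changes of 0.24 ± 0.12 in KO (adjusted p = 0.298) and 0.76 ± 0.12 in WT (adjusted p = 0.000134). Its paralog Unc13a, the main Munc13 of cortical synapses, had 0.13 ± 0.13 in KO (adjusted p = 0.663) and 0.03 ± 0.13 in WT (adjusted p = 0.927). Doc2b, a high-affinity calcium sensor linked to spontaneous and asynchronous release, rose in KO. It was 45.8, 36.5, 36.1 and 50.6 CPM at 24 h against 30.7, 21.7, 18.7 and 22.8 CPM in KO control, with no overlap (0.85 ± 0.18, adjusted p = 0.00646). In WT it was 63.0, 71.5, 63.1 and 60.6 CPM at 24 h against 61.2, 57.0, 54.6 and 66.8 CPM in control (0.11 ± 0.18, adjusted p = 0.755). The KO libraries at 24 h were still below all WT libraries.

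Of the genes that fell at 24 h in WT, Sv2b moved most. SV2 glycoproteins are carried by every synaptic vesicle, and Sv2b (chr7:75114894-75309262) is one of 3 paralogs. In WT its level was 151, 160.1, 103 and 115 CPM at 24 h against 377, 349, 287 and 280.2 CPM in control, with no overlap (-1.29 ± 0.21, adjusted p = 0.000133). In KO it was 93.8, 67.7, 127 and 135 CPM at 24 h against 168, 143, 155 and 107 CPM in control, and the groups overlapped (-0.44 ± 0.21, adjusted p = 0.252). By culture the KO change was -0.84, -1.08, -0.28 and 0.33. Culture 4 alone rose, and its 24 h library is the one that lay toward WT in marker sums. The other SV2 genes did not pass, with 0.01 ± 0.10 in KO and -0.01 ± 0.10 in WT for Sv2a and 0.08 ± 0.73 in KO and -0.03 ± 0.73 in WT for Sv2c. Syn3, the least abundant synapsin, was 31.8, 33.1, 26.6 and 33.0 CPM at 24 h against 54.7, 53.8, 46.4 and 65.2 CPM in WT control, again without overlap (-0.82 ± 0.19, adjusted p = 0.00421). In KO it had -0.26 ± 0.20 (adjusted p = 0.525). Syn1, the most abundant synapsin, was 315, 316, 343 and 319.6 CPM at 24 h against 375, 398, 458 and 382 CPM in WT control (-0.32 ± 0.08, adjusted p = 0.00923). KO libraries had 470.3, 400.2, 442 and 384 CPM of Syn1 at 24 h against 517, 483, 432 and 475 CPM in control (-0.17 ± 0.08, adjusted p = 0.286). Its WT call was lost without WT control replicate 3 (-0.35 to -0.25, adjusted p up to 0.0521).

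Among the synaptotagmins that fell, Syt17 was 7.17, 6.81, 7.03 and 9.20 CPM at 24 h against 18.6, 14.1, 8.50 and 21.1 CPM in WT control, where replicate 3 was low (-1.04 ± 0.26, adjusted p = 0.00646). In KO it had -0.53 ± 0.26 (adjusted p = 0.277), and by culture the KO change was -0.43, -0.44, -0.55 and -0.75. Syt11, a calcium-independent synaptotagmin of endocytic compartments, was 672, 696, 789 and 681 CPM at 24 h against 866, 892, 905 and 879 CPM in KO control (-0.32 ± 0.07, adjusted p = 0.00706). In WT it was 613, 589, 599.5 and 631 CPM at 24 h against 776, 754, 741 and 812 CPM in control (-0.34 ± 0.07, adjusted p = 0.00107). The KO call of Syt11 was lost with no filter on low counts and in a fit of the compared groups alone. This small fall separated every 24 h library from every control library in both genotypes. Syt5 fell to 149.8 to 165 CPM at 24 h in WT, against 182 to 221 CPM in control (-0.37 ± 0.10, adjusted p = 0.00797). The other WT falls were Doc2a (-0.65 ± 0.22, adjusted p = 0.0437), the SNARE protein Stx1a (-0.33 ± 0.11, adjusted p = 0.0448), the scaffold Erc2 (-0.28 ± 0.09, adjusted p = 0.0397) and the vesicle protein Syngr3 (-0.27 ± 0.08, adjusted p = 0.016). These 4 calls were near the threshold: Erc2 lost its call in all 8 fits that left 1 library out, Stx1a in 7, Doc2a in 6, and Syngr3 without WT control replicate 3 or 4. Across those fits the log2 fold change was -0.30 to -0.27 for Erc2, -0.40 to -0.28 for Stx1a, -0.76 to -0.56 for Doc2a and -0.31 to -0.25 for Syngr3, and the adjusted p reached 0.123 for Erc2, 0.156 for Stx1a, 0.133 for Doc2a and 0.0502 for Syngr3. The summed excitatory cortical markers were also lower at 24 h in WT (447 to 660.4 CPM at 24 h, 660.4 to 898 CPM in control), where 3 of 8 passed, and in KO were 284 to 521 CPM at 24 h and 417 to 496 CPM in control, where 1 of 8 passed. The sum of oligodendrocyte lineage markers was higher at 24 h in WT (56.7 to 89.9 CPM at 24 h, 35.5 to 45.0 CPM in control, 1 of 7 tested passed), and in KO was 37.8 to 58.6 CPM at 24 h and 23.3 to 41.4 CPM in control, where 0 of 7 passed. Of that list Sox10, which defines the lineage, was at 0 in 20 of the 24 libraries. The part of these markers in the 24 h changes was not tested.

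Further falls at 24 h passed with culture as a replicate block and not without it. Syn2, a synapsin, was 180.4, 168, 197 and 152 CPM at 24 h against 255, 254, 269.7 and 279 CPM in control in KO, and 192, 137, 149 and 257 CPM at 24 h against 274, 208, 202 and 431 CPM in control in WT. By culture its log2 change was -0.50, -0.60, -0.45 and -0.88 in KO and -0.52, -0.61, -0.44 and -0.75 in WT. The blocked fit gave -0.61 ± 0.09 in KO (adjusted p = 0.000203) and -0.58 ± 0.09 in WT (adjusted p = 8.38e-05), and the unblocked fit -0.60 ± 0.24 in KO (adjusted p = 0.16) and -0.60 ± 0.24 in WT (adjusted p = 0.0837). Synpr fell with the block in KO (-0.70 ± 0.14, adjusted p = 0.00151) and WT (-1.21 ± 0.13, adjusted p = 1.51e-06), as did Cplx2 (-0.40 ± 0.09, adjusted p = 0.00398, in KO and -0.76 ± 0.09, adjusted p = 3.14e-06, in WT). Unblocked, Synpr had adjusted p = 0.573 in KO and 0.15 in WT, and Cplx2 0.444 in KO and 0.0501 in WT. Syn2, Synpr and Cplx2 were lower at 24 h in all 8 cultures. Napb and Syngr1, also lower in all 8, passed with the block in both genotypes, at -0.20 ± 0.06 in KO and -0.24 ± 0.06 in WT for Napb and -0.19 ± 0.04 in KO and -0.26 ± 0.04 in WT for Syngr1. These genes were picked by the blocked test on the same cultures, so their common sign adds no support to it. Syt1, Syt5, Syt11, Syt17, Doc2a, Vamp2, Rab3a and Syngr3 were also lower in all 8. The share of all genes lower in all 8 was not computed.

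Of the SNARE genes, Stx1a alone passed without the block, in WT, and none passed in KO. Vamp2 was 1419, 1274, 1296 and 1046 CPM at 24 h against 1444, 1318, 1489 and 1475 CPM in control in KO (-0.19 ± 0.09, adjusted p = 0.28). WT libraries had 920.4, 878, 1055 and 1003 CPM of Vamp2 at 24 h against 1057, 1087, 1195 and 1063 CPM in control (-0.19 ± 0.09, adjusted p = 0.162), where every 24 h library lay below every control library. With the block Vamp2 passed in WT (-0.19 ± 0.07, adjusted p = 0.0349). Unblocked, Snap25 had -0.09 ± 0.11 in KO and -0.12 ± 0.11 in WT, Syp -0.10 ± 0.09 in KO and -0.14 ± 0.09 in WT, and Syt1, the calcium sensor of synchronous release, -0.10 ± 0.13 in KO and -0.32 ± 0.13 in WT, where Syt1 passed with the block (-0.34 ± 0.07, adjusted p = 0.00126). The large scaffolds did not pass in either fit, Bsn (0.02 ± 0.16 in KO, 0.17 ± 0.16 in WT) and Pclo (0.13 ± 0.13 in KO, 0.11 ± 0.13 in WT).

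Counts at 24 h moved with single libraries and with the set a library belonged to. The library descriptions number the control libraries 1 or 2, here called sets, without saying what the number marks. Set 1 held 2 WT cultures and 1 KO culture, so that its single KO library per group is assumed to vary like WT, and set 2 held 2 WT and 3 KO cultures. In set 1 alone 3 genes passed in KO and 19 in WT, and in set 2 alone 0 in KO and 1 in WT. The KO count of 5 was 3 without control replicate 1 or 3 or 24 h replicate 3, and 2 without control replicate 2 or 4 or 24 h replicate 1 or 2. Without the KO culture 4 libraries and KO BDNF 30 min replicate 3 it was 9, and the WT count was 23.

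The test of the difference in 24 h response between KO and WT passed in 0 of the 46 genes in edgeR, against 0.0358% of all genes, with 4 members at an unadjusted p under 0.05 and 0 calls in DESeq2. Those 4 were Sv2b (0.85 ± 0.29, adjusted p = 0.563), Doc2b (0.74 ± 0.25, adjusted p = 0.563), Unc13b (-0.52 ± 0.17, adjusted p = 0.535) and Rims4 (-0.41 ± 0.14, adjusted p = 0.619), given as KO minus WT. With culture as a replicate block 4 genes passed, while 1.78% of all genes did: Doc2b (0.74 ± 0.15, adjusted p = 0.0172), Syn3 (0.58 ± 0.14, adjusted p = 0.0398), Unc13b (-0.51 ± 0.11, adjusted p = 0.0232) and Rims4 (-0.41 ± 0.10, adjusted p = 0.0495). In that fit Sv2b had 0.85 ± 0.23 (adjusted p = 0.0633). By culture the Doc2b response was 0.58, 0.74, 0.95 and 1.15 in KO and 0.04, 0.33, 0.21 and -0.14 in WT. For Unc13b it was 0.13, 0.24, 0.23 and 0.40 in KO and 0.60, 0.92, 0.90 and 0.59 in WT, and for Syn3 -0.43, -0.24, -0.40 and 0.08 in KO and -0.78, -0.70, -0.80 and -0.98 in WT. Rims4, which encodes a short RIM protein, had -0.27, -0.23, -0.19 and -0.22 in KO and 0.28, 0.16, 0.13 and 0.14 in WT. In these 4 genes no KO culture overlapped a WT culture. They were picked by the blocked test on the same cultures, so this separation adds no support to it. The share of all genes so separated was not computed. KO culture 4, whose 24 h library lay toward WT in Hist2h2be and marker sums, is part of this fit. It gave the largest KO rises of Doc2b (1.15) and Unc13b (0.40) and the only KO rise of Syn3 (0.08). For Rims4 its value (-0.22) lay within those of the other KO cultures. A blocked fit without culture 4 was not run. Doc2b, Unc13b and Syn3 also differed between KO and WT in control cultures, and those control libraries enter both comparisons.

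KO and WT differed before any BDNF was given. In control cultures 12 were higher and 10 lower in KO, 47.8% of the 46, against 21.4% of all genes tested (28.7% of all genes, and 51.2% of the members, at a mean of at least 10 CPM). The median log2 difference was 0.15, against 0.03 over all genes tested. The members were chosen with earlier results of these data known. Their shares, here and in the other comparisons, describe the list and are not a test of presynaptic genes. The rises took in 3 of 3 genes of the Rab3 group, 2 of 4 SNARE genes and 2 of 6 SNARE regulators, while the SNARE gene Stx1a was lower. The falls took in 2 of 2 Doc2 genes and 2 of 7 active zone scaffolds. These groups are small and not all are listed. The shares of all genes above count both directions, so they are no measure for these counts. In RNA from whole cultures, fewer cells of a type and less RNA per cell cannot be told apart.

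**Figure D2:**
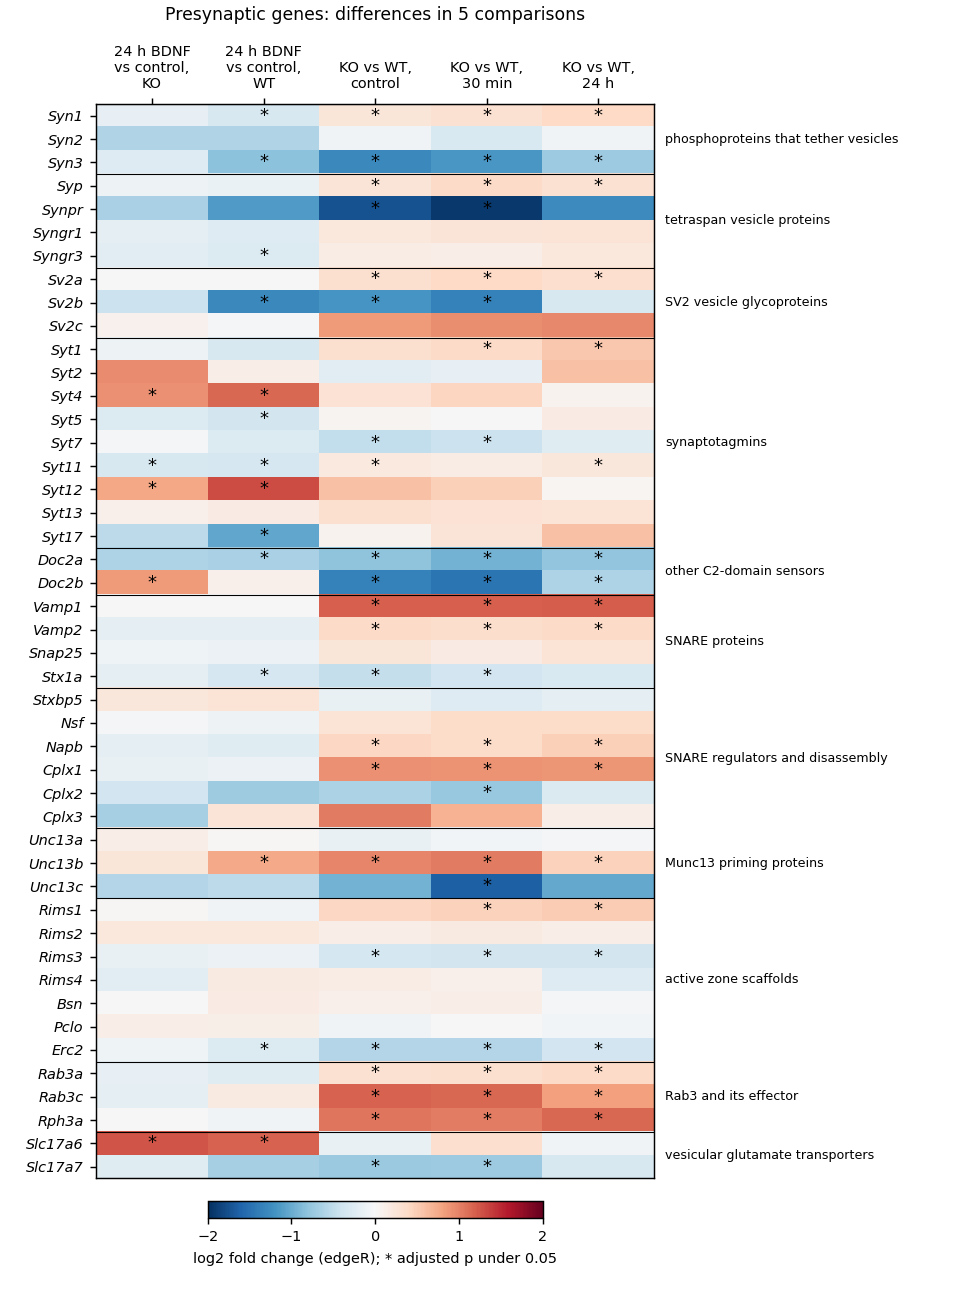
Log2 fold change (colour, red higher and blue lower in KO or with BDNF, scale -2 to 2) of the 46 genes, grouped by role, in 5 comparisons. A star marks an adjusted p under 0.05 in edgeR. In control cultures 12 genes were higher and 10 lower in KO, where 21.4% of all genes tested passed. At 24 h WT shows 14 stars, where 18.7% of all genes passed, and KO shows 5, where 5.61% did. The test of the difference in 24 h response between KO and WT passed in 0 of the 46 without the block.

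All 3 members of the Rab3 group were higher in KO. Rab3 GTPases ride on vesicles in their GTP form, and rabphilin (Rph3a) is an effector that binds them. Rab3c (chr13:110054187-110280996, the whole gene on mm10, as for the other positions of genes) was 1938, 2088, 2039.7 and 1536 CPM in KO control against 807, 781, 931 and 828 CPM in WT control libraries, with no overlap between groups (1.18 ± 0.16, adjusted p = 2.17e-05). Rph3a (chr5:120940499-121010092) was 325, 317, 278 and 303 CPM in KO against 153, 104, 93.7 and 233 CPM in WT control libraries (1.07 ± 0.28, adjusted p = 0.00823), and its WT libraries spread widely with replicate 4 highest. Rab3a, the main Rab3 of brain, had the smaller difference: 557, 492, 484 and 449 CPM in KO against 387, 388, 434 and 395 CPM in WT control libraries (0.31 ± 0.10, adjusted p = 0.0391).

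Both synaptobrevins were higher in KO. Vamp1 (chr6:125215551-125245964), the paralog that prevails in brainstem and spinal cord, was 25.7, 25.5, 29.8 and 30.6 CPM in KO against 12.7, 11.7, 12.3 and 11.8 CPM in WT control libraries. The groups were far apart (1.20 ± 0.18, adjusted p = 4.74e-05). Vamp2 was 1444, 1318, 1489 and 1475 CPM in KO against 1057, 1087, 1195 and 1063 CPM in WT control libraries (0.38 ± 0.09, adjusted p = 0.00449). Here too every KO library was above every WT library. Of their partners at the plasma membrane, Stx1a was lower, at 195, 183, 178 and 150.1 CPM in KO against 250.1, 251, 265 and 212 CPM in WT control libraries (-0.47 ± 0.12, adjusted p = 0.00487). Snap25 was 936, 867, 1049 and 735 CPM in KO against 819, 732, 780.4 and 696 CPM in WT control libraries, groups that overlapped (0.24 ± 0.11, adjusted p = 0.116).

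The complexins moved apart. Cplx1 (chr5:108518554-108550024) was 1049, 959.5, 1027 and 918 CPM in KO against 511, 513, 585 and 490.3 CPM in WT control libraries, with no overlap (0.91 ± 0.15, adjusted p = 9.96e-05). Cplx2, which excitatory forebrain neurons express, was 376, 349.7, 346 and 342 CPM in KO against 576, 419.7, 404 and 782 CPM in WT control libraries and did not pass there, although all KO libraries were lower (-0.63 ± 0.25, adjusted p = 0.0821). Napb, which helps the ATPase NSF to take spent SNARE complexes apart, was 736, 718, 802 and 756 CPM in KO against 623, 571, 508 and 548 CPM in WT control libraries (0.42 ± 0.09, adjusted p = 0.00139). Nsf itself had 0.28 ± 0.15 (adjusted p = 0.192), and the inhibitor tomosyn, Stxbp5, had -0.16 ± 0.11 (adjusted p = 0.357).

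Among priming and scaffold proteins, Unc13b was 91.2, 79.9, 92.1 and 65.4 CPM in KO against 45.3, 41.2, 43.6 and 36.5 CPM in WT control libraries, the smallest adjusted p among the 46 in control cultures (0.98 ± 0.12, adjusted p = 1.1e-05). Unc13a did not follow, with -0.15 ± 0.13 (adjusted p = 0.453). Erc2 (CAST, chr14:27622428-28478537), which links RIM and Munc13 at the active zone, was 187, 197, 194 and 163 CPM in KO against 272, 281, 269.6 and 285 CPM in WT control libraries (-0.58 ± 0.09, adjusted p = 0.000125). All 4 KO libraries lay below all WT libraries. Rims3, a short RIM protein, was 82.8, 86.3, 87.6 and 70.6 CPM in KO against 105, 98.2, 94.8 and 118 CPM in WT control libraries (-0.34 ± 0.12, adjusted p = 0.0422). Rims1 was 326, 336, 300.5 and 214 CPM in KO against 210.2, 236, 259 and 179 CPM in WT control libraries (0.41 ± 0.16, adjusted p = 0.0769), and Rims2, Rims4, Bsn and Pclo had log2 differences of 0.13, 0.15, 0.11 and -0.07 with none passing.

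By fold, the largest falls among the genes that passed were those of Synpr and Doc2b. Doc2b (chr11:75768966-75796049) was 30.7, 21.7, 18.7 and 22.8 CPM in KO against 61.2, 57.0, 54.6 and 66.8 CPM in WT control libraries, with no overlap (-1.35 ± 0.18, adjusted p = 2.03e-05). Doc2a was 6.51, 6.57, 6.15 and 4.48 CPM in KO against 10.2, 10.2, 9.08 and 12.3 CPM in WT control libraries (-0.81 ± 0.22, adjusted p = 0.0113). Thus both Doc2 genes were lower in every KO library than in every WT library. Synpr (synaptoporin) was 13.5, 18.5, 16.7 and 24.8 CPM in KO against 70.5, 48.8, 16.7 and 111 CPM in WT control libraries, where replicate 3 was as low as KO (-1.75 ± 0.54, adjusted p = 0.0233). Its relative synaptophysin, Syp, was higher in all KO libraries, at 935, 843, 850.1 and 824 CPM in KO against 681, 713, 738 and 746 CPM in WT control libraries (0.26 ± 0.09, adjusted p = 0.0299). Syngr1 (0.21 ± 0.10) and Syngr3 (0.15 ± 0.08), of the same tetraspan family, did not pass.

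Sv2b was 168, 143, 155 and 107 CPM in KO against 377, 349, 287 and 280.2 CPM in WT control libraries (-1.17 ± 0.21, adjusted p = 0.000302). Every KO library held less Sv2b than the lowest WT library. Sv2a went the other way, with 970.0, 864, 901 and 725 CPM in KO against 677, 687, 687 and 729 CPM in WT control libraries (0.32 ± 0.10, adjusted p = 0.0259). Sv2c, found mainly in basal ganglia, was 44.0, 59.6, 47.2 and 30.3 CPM in KO against 14.6, 15.9, 5.08 and 64.6 CPM in WT control libraries, a spread too wide to pass (0.85 ± 0.73, adjusted p = 0.451). Syn3 was 25.6, 27.6, 19.6 and 17.0 CPM in KO against 54.7, 53.8, 46.4 and 65.2 CPM in WT control libraries (-1.29 ± 0.20, adjusted p = 6.72e-05). The highest KO library had less Syn3 than the lowest WT library. Syn1 was 517, 483, 432 and 475 CPM in KO against 375, 398, 458 and 382 CPM in WT control libraries, which overlapped (0.24 ± 0.08, adjusted p = 0.0441), and Syn2 had -0.08 ± 0.24 (adjusted p = 0.857). Of the 9 synaptotagmins, Syt7, the slow calcium sensor of asynchronous release, was lower, at 244, 240.0, 225 and 212 CPM in KO against 319, 364, 338 and 272 CPM in WT control libraries (-0.49 ± 0.10, adjusted p = 0.00165). Syt11 was higher by a small margin (0.20 ± 0.07, adjusted p = 0.0408). Syt1 was 1423, 1700.2, 1785 and 1409.5 CPM in KO against 1213, 1279.5, 1206 and 1344 CPM in WT control libraries, with every KO library above every WT library, but missed the threshold (0.33 ± 0.13, adjusted p = 0.0873). Slc17a7 (VGLUT1), the transporter of mature excitatory cortical neurons, was 308, 212, 236 and 158 CPM in KO against 403, 437, 418 and 268 CPM in WT control libraries (-0.74 ± 0.25, adjusted p = 0.0397). Without KO culture 4 and KO BDNF 30 min replicate 3 it did not pass (-0.60 ± 0.26, adjusted p = 0.086).

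**Figure D3:**
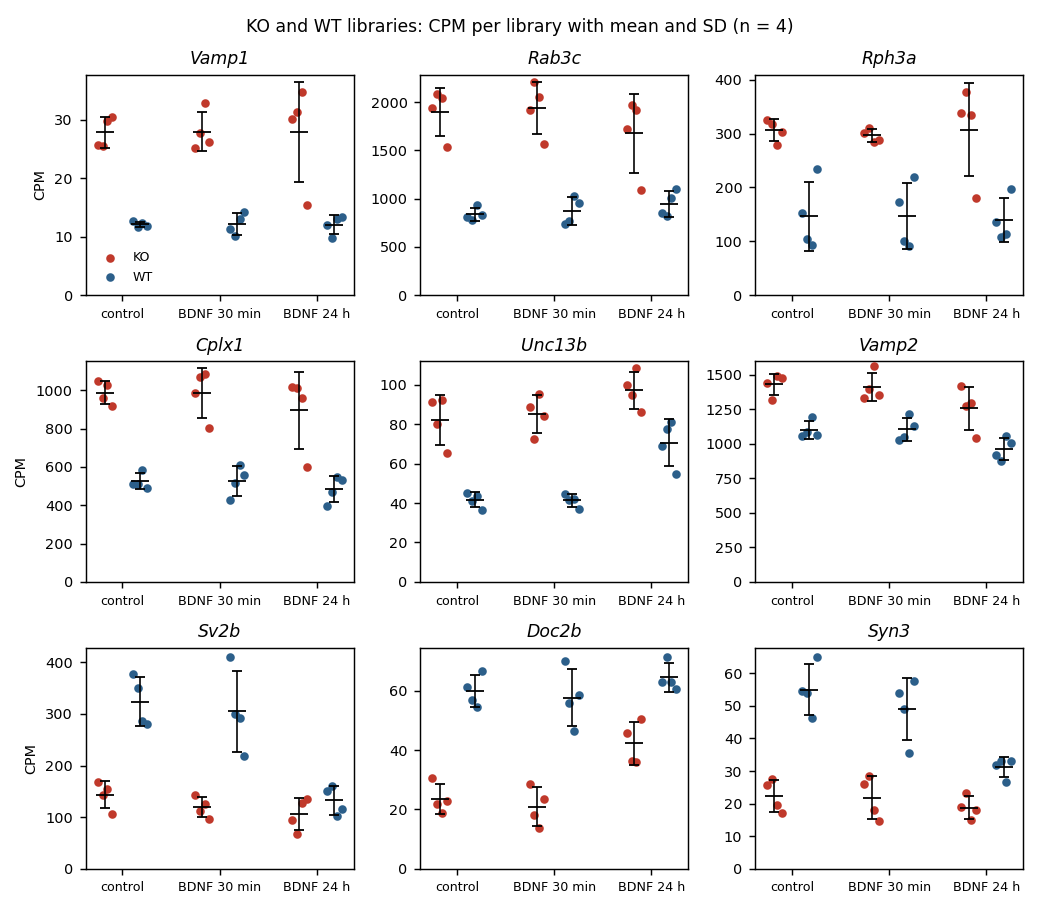
Level of 9 genes in CPM (linear axis from 0) in KO (red, left) and WT (blue, right) libraries in the 3 conditions. Points are libraries and black bars are mean and SD (n = 4). Vamp1, Rab3c, Rph3a, Cplx1, Unc13b and Vamp2 are higher and Sv2b, Doc2b and Syn3 lower in KO control libraries, and 1 KO BDNF 24 h library lies near WT for Vamp1, Rab3c, Rph3a and Cplx1.

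In control cultures 8 genes passed in every fit that left out 1 library, in set 2 alone and in every alternative fit of both sets: Vamp1, Rab3c, Cplx1, Unc13b, Doc2b, Sv2b, Syn3 and Erc2. The calls of Syn1, Syt11, Rab3a, Sv2a, Syp, Rims3, Slc17a7 and Synpr were each lost in at least 4 of 8 fits that left out 1 library. Their adjusted p reached 0.215 for Syn1, 0.136 for Syt11, 0.202 for Rab3a, 0.152 for Sv2a, 0.146 for Syp, 0.143 for Rims3, 0.117 for Slc17a7 and 0.106 for Synpr. Without WT control replicate 1 the count was 14 (7 higher, 7 lower). Set 1 alone, with its single KO library, gave 23 and set 2 alone 8.

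Markers of neuron types moved with the genotype. In control cultures 4 of 8 inhibitory markers passed, all higher in KO, 6 of 8 excitatory cortical markers passed, all lower, and 1 of 8 astrocyte markers passed, lower. No inhibitory or excitatory marker was at 0 in any library. WT control replicate 4 had the highest inhibitory sum of its group, 2123 CPM, and KO control replicate 1 the lowest of its group, 2229 CPM. Side by side, KO control replicate 1 and WT control replicate 4 had 25.7 and 11.8 CPM of Vamp1, 1938 and 828 CPM of Rab3c, and 1049 and 490.3 CPM of Cplx1. Rph3a was nearer, at 325 CPM in that KO library and 233 CPM in that WT library. Sv2b was 168 CPM in the KO and 280.2 CPM in the WT library. The excitatory sums of this pair, 417 CPM in the KO and 660.4 CPM in the WT library, and its astrocyte sums, 308 CPM in the KO and 426 CPM in the WT library, were apart like the genotypes. These are single libraries, the KO library of set 1 and the WT library of set 2, close in the inhibitory sum alone. The part that cell type makeup has in the genotype differences was not tested.

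**Figure D4:**
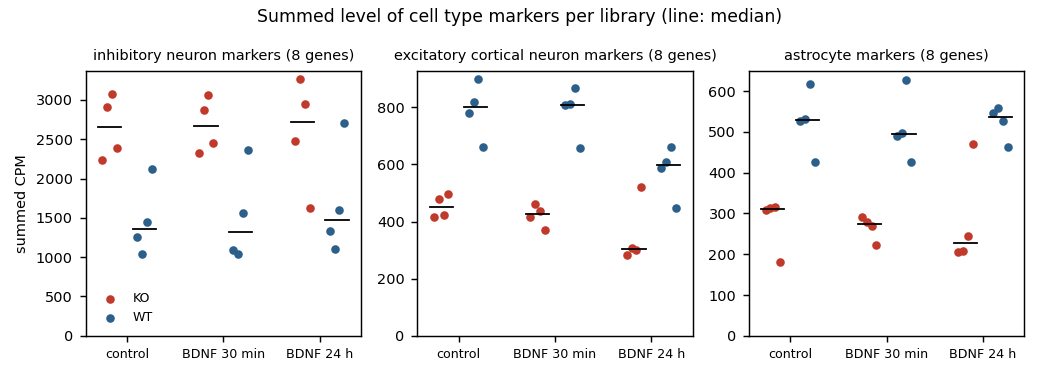
Summed CPM (linear axis from 0) of 8 inhibitory neuron, 8 excitatory cortical neuron and 8 astrocyte markers in KO (red, left) and WT (blue, right) libraries by condition. Points are libraries and lines are group medians. KO control libraries lie above WT control libraries for inhibitory markers and below them for the other lists, and 1 KO BDNF 24 h library lies toward WT in all 3. The astrocyte sum is mostly Slc1a2.

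KO and WT also differed in the BDNF-treated cultures. At 30 min 25 passed (13 higher, 12 lower in KO, 54.3% of the 46, against 28.4% of all genes tested) with a median log2 difference of 0.18, against 0.02 over all genes. Unc13c, Cplx2, Rims1 and Syt1 passed here and not in control cultures, and Syt11 did not pass; these differences between conditions were not tested one by one, beyond the tests of the BDNF response. Unc13c, a scarce Munc13, was 2.65, 3.18, 1.03 and 3.52 CPM in KO against 9.52, 7.68, 7.45 and 7.98 CPM in WT BDNF 30 min libraries, with no overlap (-1.63 ± 0.38, adjusted p = 0.0027). Cplx2 was 328, 319, 382 and 231 CPM in KO against 649, 416, 366 and 704 CPM in WT BDNF 30 min libraries (-0.76 ± 0.25, adjusted p = 0.0271). Without KO culture 4 and KO BDNF 30 min replicate 3, 5 of the 25 calls were lost. The values were then -0.72 ± 0.32 for Cplx2 (adjusted p = 0.108), -0.70 ± 0.30 for Slc17a7 (adjusted p = 0.0871), -0.27 ± 0.10 for Stx1a (adjusted p = 0.0541), -0.22 ± 0.11 for Rims3 (adjusted p = 0.151) and 0.34 ± 0.15 for Syt1 (adjusted p = 0.0898). With all libraries Rims1 had 0.46 ± 0.16 (adjusted p = 0.0398) and Syt1 0.38 ± 0.13 (adjusted p = 0.0362), each lost in 6 of the 8 fits that left out 1 library. Set 1 alone gave 25 calls and set 2 alone 8.

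At 24 h 19 genes passed (14 higher, 5 lower in KO, 41.3% of the 46, against 13.3% of all genes tested), with a median log2 difference of 0.15, against 0.00 over all genes. Vamp1 was 30.2, 31.3, 34.7 and 15.4 CPM in KO against 12.0, 9.69, 13.1 and 13.4 CPM in WT BDNF 24 h libraries (1.21 ± 0.18, adjusted p = 0.000176). Cplx1 was 1015, 1010.5, 958 and 597 CPM in KO against 397, 467, 547 and 531 CPM in WT (0.88 ± 0.15, adjusted p = 0.000535). Rab3c was 1724, 1975, 1923 and 1088 CPM in KO against 853, 821, 1009 and 1097 CPM in WT (0.83 ± 0.16, adjusted p = 0.00158). In each of these 3 genes the low KO library was the one labelled replicate 4, and without KO culture 4 and KO BDNF 30 min replicate 3 the log2 differences were 1.42 ± 0.12 for Vamp1, 1.04 ± 0.11 for Cplx1 and 0.997 ± 0.11 for Rab3c. Syt1 was 1359.9, 1618, 1733 and 1169 CPM in KO against 877, 895, 925 and 1343 CPM in WT, where replicate 4 was high (0.54 ± 0.13, adjusted p = 0.00928). Rph3a (1.15 ± 0.28), Napb (0.47 ± 0.09), Vamp2 (0.39 ± 0.09), Syn1 (0.39 ± 0.08) and Unc13b (0.46 ± 0.12) also were higher in KO. Doc2a (-0.79 ± 0.22), Syn3 (-0.73 ± 0.20), Doc2b (-0.61 ± 0.18), Erc2 (-0.39 ± 0.09) and Rims3 (-0.37 ± 0.12) were lower. Sv2b, lower in KO in the 2 earlier conditions, had 93.8, 67.7, 127 and 135 CPM in KO against 151, 160.1, 103 and 115 CPM in WT at 24 h, and the groups overlapped (-0.32 ± 0.21, adjusted p = 0.346). The KO value of 135 CPM was from the library labelled replicate 4, and the 127 CPM of replicate 3 also lay within the WT range. Without the KO culture 4 libraries and KO BDNF 30 min replicate 3 the count was 29 (20 higher, 9 lower), and without the library labelled KO BDNF 24 h replicate 4 alone it was 23. The inhibitory sums at 24 h were 1630.1 to 3261 CPM in KO and 1109 to 2706 CPM in WT, and the excitatory sums 284 to 521 CPM in KO and 447 to 660.4 CPM in WT. The count of 19 was 11 without WT BDNF 24 h replicate 1, 10 without KO BDNF 24 h replicate 1, 12 without KO replicate 2 and 9 without KO replicate 3. Cplx1, Erc2, Napb, Rab3c, Rph3a, Syn1 and Vamp1 passed in every fit that left out 1 library, while Rims1, Rims3 and Syt11 passed in 1 of 8, Sv2a in 2, Rab3a and Syp in 3, Doc2b and Unc13b in 4, Doc2a in 6, and Syn3, Syt1 and Vamp2 in 7. Set 1 alone gave 26 and set 2 alone 0.

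Shares of paralogs within a family are given as a percentage of the family's CPM per kb (mean ± SD, n = 4). A family here holds only paralogs among the 46 genes, so that Rab3b, Rab3d and Slc17a8, for example, are left out. In control cultures Cplx2 made up 13.7% ± 0.502 of complexin in KO and 31.2% ± 7.93 in WT. Sv2b made up 8.15% ± 0.529 of SV2 in KO and 20.2% ± 2.89 in WT. Rab3c made up 41.4% ± 2.86 of the 2 Rab3 genes in KO and 27.8% ± 0.524 in WT. These shares describe the levels above and were not tested on their own. Unc13b made up 10.7% ± 1.35 of Munc13 in KO and 5.09% ± 0.397 in WT control libraries, and at 24 h 11.4% ± 1.22 in KO and 8.21% ± 0.907 in WT. Slc17a6 made up 15.2% ± 3.38 of the 2 VGLUT genes in KO and 10.5% ± 3.34 in WT control libraries, and 33.4% ± 8.31 in KO and 29.4% ± 8.46 in WT at 24 h. In all groups Unc13a, Sv2a, Cplx1, Rab3a and Slc17a7 kept the largest share of their family, and Vamp2 held 99.3% ± 0.0461 of synaptobrevin in KO and 99.6% ± 0.0271 in WT control libraries.

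**Figure D5:**
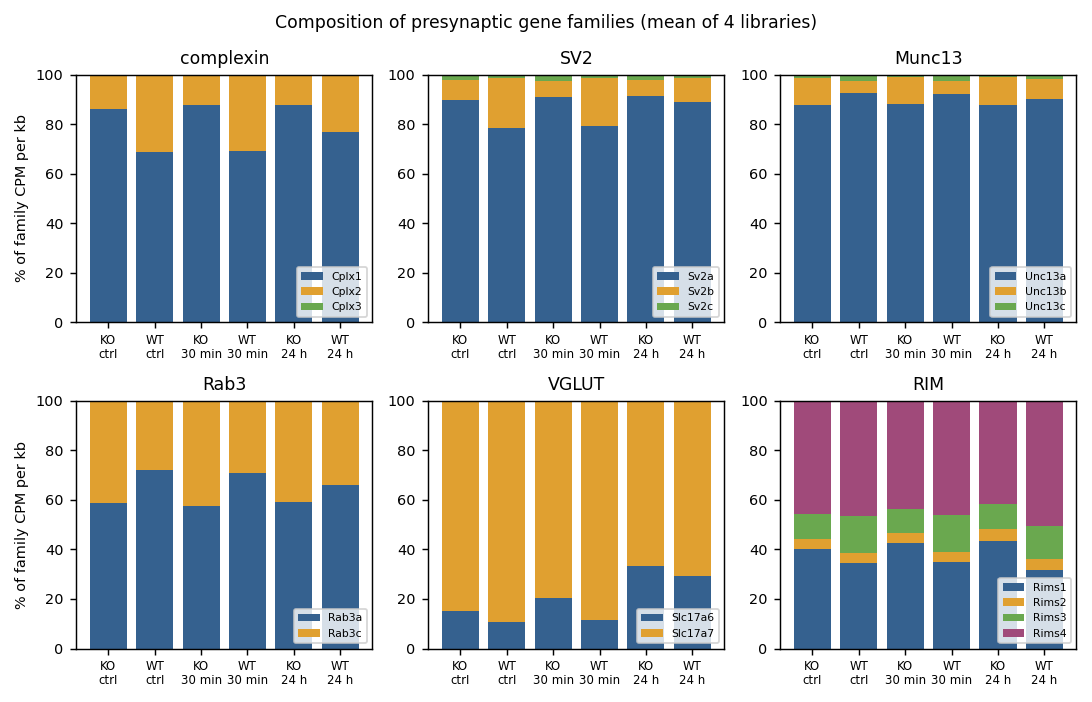
Mean share (percent of the summed CPM per kb, stacked to 100%) of each paralog in 6 presynaptic families, with KO left of WT in each condition (mean of 4 libraries). Families hold only paralogs among the 46 genes. Cplx2 and Sv2b hold less and Rab3c and Unc13b more of their family in KO, and Slc17a6 holds more at 24 h in both genotypes.

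A further 88 presynaptic genes were listed, of which 83 were tested. At 24 h of BDNF, 5 rose and 2 fell in KO, where 5.61% of all genes passed, and 9 rose and 16 fell in WT, where 18.7% did. Rab27b, a vesicle-docking GTPase, rose in KO (0.77 ± 0.18, adjusted p = 0.0109) and WT (1.37 ± 0.18, adjusted p = 1.07e-05), as did Rab3gap2, part of the Rab3 GTPase-activating complex (0.72 ± 0.14, adjusted p = 0.00304, in KO and 1.11 ± 0.14, adjusted p = 6.43e-06, in WT). Slc17a8 (VGLUT3) rose in WT (1.29 ± 0.43, adjusted p = 0.0382), while Rab3il1, a Rab3 exchange factor, and Baiap3, a Munc13 relative, fell there (-1.21 ± 0.24 and -1.30 ± 0.43, adjusted p = 0.000767 and 0.0366). Between KO and WT control cultures 13 were higher and 14 lower, where 21.4% of all genes passed. Slc32a1, the vesicular GABA transporter and also an inhibitory marker, was higher in KO (1.33 ± 0.36, adjusted p = 0.0108), as were Slc6a17 (0.80 ± 0.19, adjusted p = 0.00371) and Rab3gap1 (0.57 ± 0.10, adjusted p = 0.000335). Of 10 subunits of the vesicle proton pump 4 passed, all higher in KO, led by Atp6v1g2 (0.59 ± 0.11, adjusted p = 0.000714). Rab3il1 (-1.77 ± 0.24, adjusted p = 2.3e-05), Syt6 (-1.26 ± 0.30, adjusted p = 0.00395) and Stxbp6 (-1.22 ± 0.32, adjusted p = 0.00781) were lower.

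Some genes overlap a gene on the other strand. The strand setting of the counting is not stated in these sources, so reads of such pairs cannot be told apart. The overlap covers 39.4% of the exon length of Doc2a (with Ino80e), 17.2% of Syt12, 16.8% of Syp, 14.5% of Syt4 and 14.1% of Syn3 (with Timp3), and at most 5.5% of any other member.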

How the data were processed

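Per the labels' protocols, polyadenylated RNA was made into libraries with a stranded TruSeq kit. The authors deposited raw counts of reads per gene, whole numbers with no normalisation, 1 column per library. The submitters' processing notes name STAR 2.7.9a, the mm10 build, DESeq2 1.38.3, limma 3.54.2 and edgeR 3.40.2 with no roles. No counting program, strand setting or annotation release is named there, and they are unknown here.

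Symbols and coordinates came from GENCODE M21 on mm10 by Ensembl identifier without version (98.77% of genes named). Counts of 24 libraries were fitted in edgeR 4.0.16 (R 4.3.3) with 1 mean per group, after filterByExpr (count of 10, total of 15) left 16777 genes and with TMM factors of 0.824 to 1.07 (18 residual degrees of freedom). Genes pass at a quasi-likelihood p, Benjamini-Hochberg adjusted over all genes tested, under 0.05. Values after a gene name are log2 fold changes ± SE, KO over WT or BDNF over control. Each SE was derived from the log2 fold change and its F statistic (absolute value over root F). CPM uses TMM-scaled totals, and log2 CPM by culture a prior count of 2. Mean CPM must reach 10 where abundant genes are compared. Precision is limited by 4 libraries per group.

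The members and lists were chosen with earlier results of these data known. Values per library are given for members that passed, up to the 8 largest of each sign per comparison, and for Syn1, Syp, Syt1, Snap25, Vamp2 and Stx1a. Others from the wider presynaptic list are the up to 4 largest of each sign. Rab3a, Sv2c and Syn2, and members outside the comparison in which they qualified, were given per library after their values were seen. In the descriptions, the control, 30 min and 24 h libraries of a replicate carry 1 culture code, which was taken to pair them. As a check, their deviations from the group means had correlations from 0.0464 to 0.462 (22 of 24 pairs exceeded 0.1, and KO BDNF 30 min replicate 3 was in the remaining pairs). KO and WT replicates have no common code, only a number. The labels do not say that cultures came from separate litters, so p-values measure the spread between these cultures. Alternatives were RLE factors, DESeq2 1.42.0, no filter, only the groups compared, set as a term, each set alone, leaving out libraries, and replicate blocks. The fit was tested on simulated data.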

Additional observations from a re-analysis of the deposited data

Results flagged for a closer look

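Within groups of 4 libraries, 11 of 186 groups of values, from the 31 members that the rule for named genes gives, held 1 value far from the other 3 (chance gives about 1 in 20, or 9.3). Of these, 4 were in the library labelled KO BDNF 24 h replicate 4: Cplx1 was low at 597 CPM (958 to 1015 CPM in the other 3), and Erc2 at 202 CPM (161 to 167 CPM), Synpr at 19.2 CPM (8.64 to 9.52 CPM) and Unc13c at 6.02 CPM (1.22 to 1.78 CPM) were high. KO BDNF 30 min replicate 4 had 1084 CPM of Syt4 (322 to 379 CPM in the other 3) and 115.5 CPM of Slc17a6 (28.2 to 38.2 CPM). KO BDNF 30 min replicate 3 had 699 CPM of Snap25 (884 to 892 CPM). WT BDNF 24 h replicate 4 had 1343 CPM of Syt1 (877 to 925 CPM) and 9.20 CPM of Syt17 (6.81 to 7.17 CPM). WT BDNF 24 h replicate 3 had 343 CPM of Syn1 (315 to 319.6 CPM), and WT control replicate 3 had 406 CPM of Syt4 (302 to 314 CPM).

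The 24 h response differed between KO and WT, with culture as a replicate block, in 4 genes: by 0.74 in Doc2b, 0.58 in Syn3, -0.51 in Unc13b and -0.41 in Rims4 (log2, KO minus WT). Without the block none of the 4 passed. The blocked fit was not run without KO culture 4.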

How the results depend on the processing

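Of 85 calls of a gene in a comparison, 50 passed in every fit that left out 1 library, 59 in every other alternative except the sets alone, and 0 changed sign in any fit run. Counts of members that passed are given here where they moved by over 1.5 times. For 24 h of BDNF in KO (5), the count was 3 with no filter, 3 in set 1 alone, 0 in set 2 alone, 9 without KO culture 4 and KO BDNF 30 min replicate 3, 18 with culture as a replicate block, and 2 to 5 leaving out 1 library. For 24 h in WT (14) it was 1 in set 2 alone, 23 without those KO libraries, 26 with the block and 10 to 15 leaving out 1 library. For KO against WT, control (22) gave 8 in set 2 alone and 14 to 22 leaving out 1 library, 30 min (25) gave 8 and 19 to 23, and 24 h (19) gave 0 and 9 to 23, with 29 without KO culture 4 and KO BDNF 30 min replicate 3. The difference of the 24 h response (0) gave 4 with the block. With replicate number as a replicate block, KO against WT gave 26 in control, 27 at 30 min and 24 at 24 h, where the genotypes share only a number. The cause of these moves was not tested, but sets alone, leaving out libraries and no filter change how many samples or genes are tested. In set 1 alone KO had 1 library per group, assumed to vary like WT. Genes of a few CPM, such as Syt2, Syt12, Cplx3 and Unc13c, rest on the fewest reads.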
